A study of Rattus norvegicus with 10 samples.

Results

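The transcription factors that keep a hepatocyte a hepatocyte were examined as 8 genes, Hnf4a, Foxa1, Foxa2, Foxa3, Cebpa, Cebpb, Onecut1 and Prox1, chosen by symbol and not by their values. They are read by 16 probe sets that the platform annotation assigns to that gene alone, out of 31099 probe sets on the array, and the named probe sets cover 14217 genes in all. The samples are livers of 10 Wistar/ST rats, 1 Affymetrix rat genome array per rat. All rats ate a high-fat diet for 7 weeks. In the mulberry group 5 rats were given 500 mg/kg/day of dried mulberry leaf powder, suspended in carboxymethylcellulose, through a gastric probe after an overnight fast. In the control group 5 rats had 0 mg/kg/day, and whether these rats received the vehicle alone is not stated outright in the labels. Pieces of unsorted liver were taken, so the RNA comes from every cell type in the tissue, and fewer cells of a type and less RNA per cell cannot be told apart.

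Hepatocyte genes are switched on by a small network of transcription factors that bind each other's genes as well as those for plasma proteins, lipoproteins and metabolic enzymes. FOXA proteins open chromatin, the nuclear receptor HNF4A and the C/EBP proteins hold hepatocyte genes active, the cut-homeodomain factor ONECUT1 (HNF6) acts on Foxa2, Hnf4a and metabolic genes, and PROX1 partners HNF4A as a corepressor. In adult liver this network is tied to fasting, insulin, growth hormone and inflammation.

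Of the promoters that could be shown, those with the letters of an ONECUT core site, ATTGAT on either strand, are given because Onecut1 and Foxa2 levels moved together across rats. Each sequence is RefSeq's, on the rat build GRCr8, from 250 bases before to 50 bases after the gene's start, with the match in capitals. The third is Cyp2c12, a liver cytochrome P450 gene on which ONECUT1 is known to act in the rat.
Foxa2 promoter, chr3:155927459-155927758, minus strand: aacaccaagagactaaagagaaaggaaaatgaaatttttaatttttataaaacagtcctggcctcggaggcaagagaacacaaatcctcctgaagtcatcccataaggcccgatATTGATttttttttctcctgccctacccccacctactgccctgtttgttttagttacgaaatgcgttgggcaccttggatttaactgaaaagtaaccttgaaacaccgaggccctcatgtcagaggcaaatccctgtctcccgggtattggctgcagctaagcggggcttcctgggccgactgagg
Hnf4a promoter, chr3:172605970-172606269, plus strand: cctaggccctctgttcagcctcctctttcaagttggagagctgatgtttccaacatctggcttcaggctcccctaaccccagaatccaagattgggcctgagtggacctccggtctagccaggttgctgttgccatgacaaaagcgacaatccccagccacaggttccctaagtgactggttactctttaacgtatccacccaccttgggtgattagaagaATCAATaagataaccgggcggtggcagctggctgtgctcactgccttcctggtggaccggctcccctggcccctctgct
Cyp2c12 promoter, chr1:248676985-248677284, minus strand: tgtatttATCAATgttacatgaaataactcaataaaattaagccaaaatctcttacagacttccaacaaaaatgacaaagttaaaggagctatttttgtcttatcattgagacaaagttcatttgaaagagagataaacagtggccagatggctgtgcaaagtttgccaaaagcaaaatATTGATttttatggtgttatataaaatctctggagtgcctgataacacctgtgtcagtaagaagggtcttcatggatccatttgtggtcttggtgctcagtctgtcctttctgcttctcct
The Foxa2 match began at position -136 and the Hnf4a match at position -29 relative to the start, and the Cyp2c12 matches at -243 and -71. The windows of Foxa3, Cebpa and Cebpb held no ATTGAT, and those of Foxa1, Onecut1 and Prox1 were not used here. ATTGAT stood in 7.87% of all 27457 rat promoter windows of that length. None of the 5 windows of these factors held TGTTTAC (FOXA), TTGCNNAA (C/EBP) or CAAAGNNCA (HNF4) on either strand, letters found in 3.76%, 10.5% and 5.86% of all windows. A match describes letters and does not show binding. Only 1 start per gene was searched, and whether that start is the one in use in these livers was not examined.

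The tissue was liver by its markers. Albumin (Alb) had an intensity of 32628 ± 5586 in mulberry and 30278 ± 5907 in control rats (SD, n = 5 each). Transthyretin (Ttr) was at 28083 ± 3113 in mulberry and 27332 ± 2517 in control rats (SD, n = 5 each), and the lipoprotein gene Apoa1 at 25863 ± 2555 in mulberry and 25532 ± 3255 in control rats (SD, n = 5 each). Any pair of arrays correlated at r = 0.957 to 0.975. The 3′ over 5′ Gapdh ratio, a log2 difference of 2 control probe sets that is higher where RNA is shorter, ran from 0.024 to 0.34 in mulberry and from -0.012 to 0.34 in control rats. The same log2 ratio for actin was larger, at 1.29 to 1.95 in mulberry and 1.51 to 2.10 in control rats. Only the Gapdh ratio was set against the factors, so RNA length was checked by that gene alone.

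None of the 8 factors passed the test between mulberry and control livers. Groups were compared with limma on log2(intensity + 16), which understates differences of dim probe sets, over 18625 probe sets above a floor on dim signals, at a Benjamini-Hochberg adjusted p of 0.05. Of the 16 probe sets 15 passed that floor, and all 8 genes had at least 1 that did. The number of genes called was 0 of 8, and over all probe sets 0 were called (0.0%), with every adjusted p at 0.9999 for the 8. An unadjusted p under 0.05 was reached by 325 probe sets (1.74%). At an unadjusted p under 0.05 the 8 genes had 0 calls, against 1.79% of the 10328 genes represented by their brightest tested probe set. In 4 of the 8 the mulberry mean was lower, where 48.7% of all those genes had a lower mean. The median difference of the 8 was -0.015, beside a median of 0.0035 over all genes. In 0 of the 8 did the groups fail to overlap, beside 0.32% over all genes. What set the factors apart from each other was how far they varied between rats.

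**Figure D1:**
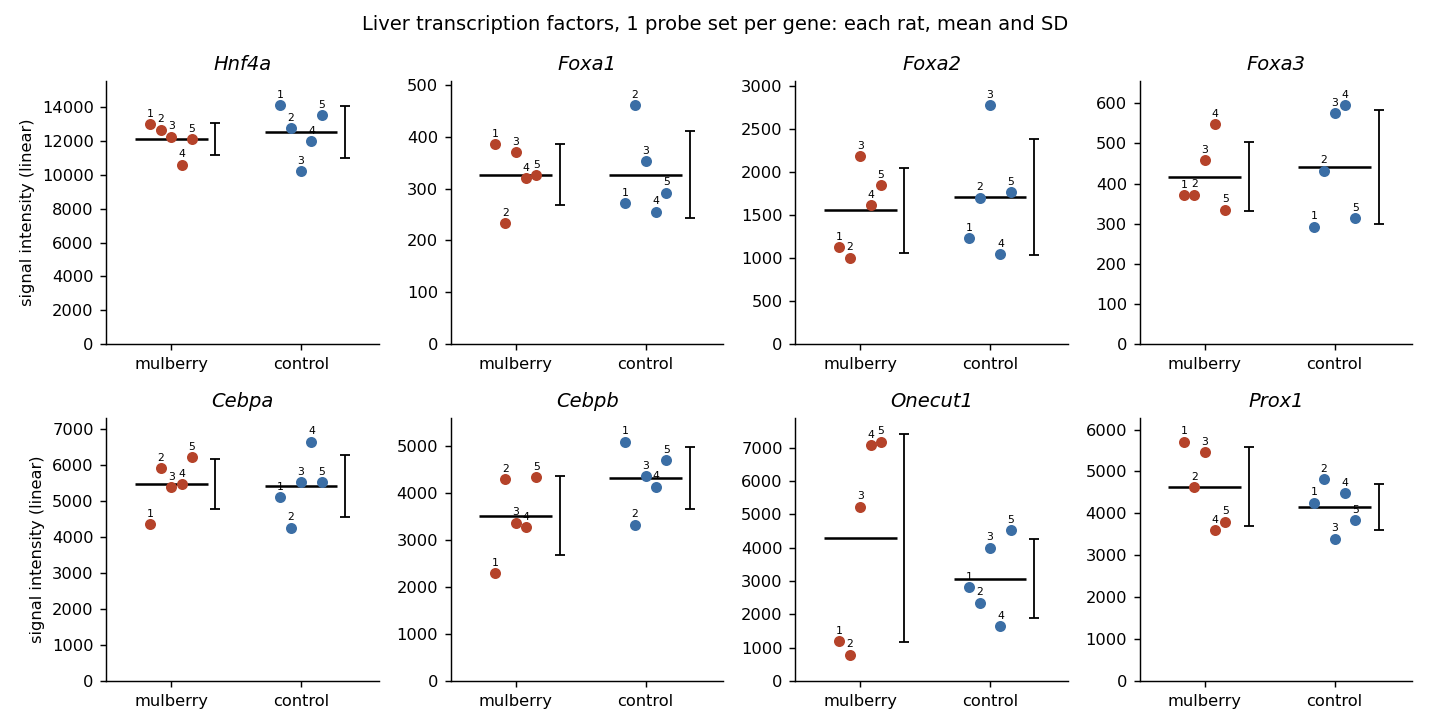
Linear signal intensity of the brightest probe set of each factor in each rat (numbers are rat numbers), with mulberry rats on the left and control rats on the right of each panel. Horizontal lines are group means and the bars beside them the SD of 5 rats. The groups overlap in all 8 panels, and Onecut1 in mulberry rats runs from 787 to 7176.

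Hnf4a encodes a nuclear receptor that drives apolipoprotein, coagulation and bile acid genes in hepatocytes. Its brightest probe set, 1392969_at, read 12991, 12673, 12253, 10599.7 and 12094 in mulberry rats 1 to 5, against 14128, 12767, 10202, 11991 and 13549.6 in control rats 1 to 5. The groups overlapped, with control rat 3 and mulberry rat 4 lowest and control rat 1 highest. Means were 12122 ± 921 in mulberry and 12528 ± 1529.9 in control rats (SD, n = 5 each), a log2 difference of -0.042 ± 0.10 (SE), whose 95% interval of -0.25 to 0.17 equals a fold of 0.84 to 1.12 (limma, n = 5 each, adjusted p = 0.9999). Read by the brightest probe set of each gene, Hnf4a was the least variable of the 8, with an SD between rats within groups of 0.15 on the log2 scale, while the median gene had 0.24. Its dimmer probe sets varied more, with log2 SDs of 0.41 in mulberry and 0.27 in control rats for 1369289_at, and 0.26 in mulberry and 0.29 in control rats for 1382496_at. Among 288 genes within 0.5 log2 of its level the brightest stood at percentile 49.3, near the middle for signals as bright.

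The other Hnf4a probe sets also gave small group differences but ordered the rats differently. Probe set 1369289_at read 1452, 1047, 939, 1617 and 819.6 in mulberry rats 1 to 5, against 1129.6, 1091, 1170.3, 1598 and 958 in control rats 1 to 5. Its highest values were in mulberry rats 1 and 4 and control rat 4. Probe set 1382496_at lay between 690.2 and 1104 in mulberry and between 743 and 1188 in control rats. Their differences were -0.044 ± 0.19 (SE) and -0.10 ± 0.16 (SE). After each group's mean was subtracted, the brightest probe set correlated over the 10 arrays at r = -0.34 with 1369289_at and r = -0.60 with 1382496_at, while those dimmer ones correlated with each other at r = 0.70. The Gapdh 3′ to 5′ ratio moved with all of them, at r = 0.79 for 1392969_at, -0.74 for 1369289_at and -0.91 for 1382496_at, or 0.36, -0.86 and -0.93 without the 2 arrays farthest from the median ratio. Over all genes the middle 90% of such correlations ran from -0.80 to 0.78. The part of RNA length in the Hnf4a readings was not tested.

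Genes that HNF4A activates correlated with the 3 Hnf4a probe sets in different directions across rats, a difference that was not tested. Of 19 measured genes on a list of HNF4A-regulated genes, 6 had a positive correlation with 1392969_at across rats (median r = -0.39). With 1369289_at the count was 16 of 19 (median r = 0.35), and with 1382496_at 16 of 19 (median r = 0.47). Over all genes the share positive with these 3 probe sets was 50.8%, 45.5% and 46.3%. The pattern was not particular to Hnf4a, since 15 of the 19 correlated positively with Cebpa probe set 1369658_at (median r = 0.38), which ran with the Gapdh ratio at r = -0.74, and 12 with Foxa3 (median r = 0.32). The extremes with the brightest probe set were Apob at r = 0.60 and Apoa1 at r = -0.83, both lipoprotein genes, over 10 arrays that share these scaling and RNA length differences. None of the 19 passed the limma test, with 12 means higher, 7 lower and the list's median at +0.022. The smallest unadjusted p values in the list belonged to Apob (+0.16 ± 0.075), whose protein carries secreted triglyceride, and F9 (+0.12 ± 0.071), coagulation factor IX.

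**Figure D2:**
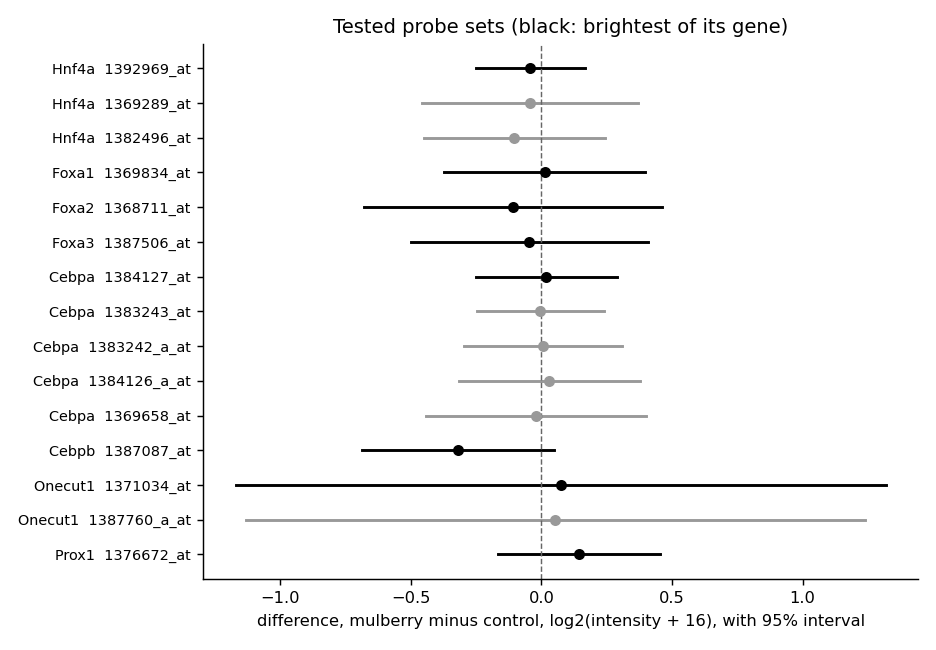
Log2 difference, mulberry minus control, of each tested probe set of the 8 factors, with its 95% interval from limma (n = 5 rats each), black for the brightest probe set of a gene and grey for its others. Every interval crosses 0, and those of Onecut1 are the widest.

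The FOXA factors are forkhead proteins that bind nucleosomal DNA and open hepatocyte enhancers. Foxa2, which also answers to insulin and fasting in liver, read 1126, 1006, 2184, 1613 and 1849.5 in mulberry rats 1 to 5, against 1234, 1703, 2778, 1042 and 1764 in control rats 1 to 5. Control rat 3 was highest of all and mulberry rat 2 lowest, and the groups overlapped. Means were 1556 ± 493 in mulberry and 1704 ± 674 in control rats (SD, n = 5 each), a log2 difference of -0.11 ± 0.26 (SE) with an interval of -0.68 to 0.46. Its SD between rats was 0.51, at percentile 96.7 among 1355 genes of like level.

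Foxa1, its closest relative, read 386, 234, 369.9, 319.9 and 326 in mulberry rats 1 to 5, against 272, 461, 354, 256 and 292 in control rats 1 to 5. Control rat 2 was highest and mulberry rat 2 lowest. The group means were within 1 unit, at 327 ± 59.3 in mulberry and 327 ± 83.7 in control rats (SD, n = 5 each), and the log2 difference was +0.012 ± 0.18 (SE), with an interval of -0.37 to 0.40. Foxa3, which in mice helps to hold blood glucose on fasting, read 371, 372, 457, 547 and 335 in mulberry rats 1 to 5, against 293, 432, 575, 596 and 314 in control rats 1 to 5. Control rats 3 and 4 and mulberry rat 4 were the high ones. The difference was -0.046 ± 0.21 (SE), on means of 417 ± 85.6 in mulberry and 442 ± 141 in control rats (SD, n = 5 each).

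Across rats Foxa1 and Foxa2 correlated at r = 0.54, Foxa2 and Foxa3 at r = 0.23, and Foxa1 and Foxa3 at r = 0.15 (10 arrays, group means subtracted). Foxa3 ran against the brightest Hnf4a probe set (r = -0.84) but with the others (r = 0.58 for 1369289_at and 0.60 for 1382496_at), and Foxa3 itself correlated with the Gapdh ratio at r = -0.73. Foxa1 and Foxa2 did so at r = 0.023 and -0.071. Without the 2 arrays farthest from the median ratio these were r = 0.20 for Foxa1, 0.65 for Foxa2 and -0.52 for Foxa3. Of 14 FOXA-regulated genes, 9 had a higher and 5 a lower mulberry mean (median +0.036), and 0 passed the test. Afp, the fetal albumin relative, had the smallest unadjusted p among them, at 1123, 1088, 1288, 1096 and 1172 in mulberry rats 1 to 5, against 883, 845, 829.9, 1148 and 1025 in control rats 1 to 5. Only control rat 4 reached into the mulberry range. Its difference was +0.29 ± 0.11 (limma, n = 5 each, adjusted p = 0.9999).

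Cebpa and Cebpb encode basic leucine zipper proteins that bind the same DNA letters; C/EBP-alpha is the factor of the resting, gluconeogenic hepatocyte, and C/EBP-beta is induced in inflammation and regeneration. The brightest Cebpa probe set, 1384127_at, read 4361, 5900.1, 5387, 5469.9 and 6204 in mulberry rats 1 to 5, against 5101, 4255, 5527, 6643 and 5515 in control rats 1 to 5. Mulberry rat 1 and control rat 2 were low and control rat 4 high. Means were 5464 ± 700.02 in mulberry and 5408 ± 863 in control rats (SD, n = 5 each), a log2 difference of +0.020 ± 0.13 (SE) with an interval of -0.25 to 0.29, or a fold of 0.84 to 1.22. The other 4 Cebpa probe sets differed by -0.020 to +0.030, so the sign was not settled, and the 10 pairs among the 5 correlated at r = 0.52 to 0.97.

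Cebpb had the largest mean log2 difference of the 8 genes. It read 2302, 4303, 3374, 3280.2 and 4337 in mulberry rats 1 to 5, against 5100.4, 3331, 4370.4, 4141 and 4709 in control rats 1 to 5. Mulberry rat 1 was lowest, control rats 1, 3, 4 and 5 lay above mulberry rats 1, 3 and 4, and the groups overlapped. Means were 3519 ± 843 in mulberry and 4330.3 ± 666 in control rats (SD, n = 5 each), a log2 difference of -0.32 ± 0.17 (SE) whose interval of -0.69 to 0.047 equals a fold of 0.621 to 1.03. It did not pass the test (limma, n = 5 each, adjusted p = 0.9999). The difference kept its sign with each rat left out in turn, at -0.41 to -0.18, the smaller of these without mulberry rat 1.

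The balance of both C/EBP genes within a liver, the log2 ratio of Cebpb to Cebpa, cancels a linear scaling of the array apart from the 16 added. Its level mixes different probe sets, so it is read only as a difference between groups. The ratio was -0.92, -0.45, -0.67, -0.73 and -0.51 in mulberry rats 1 to 5, against -0.00014, -0.35, -0.34, -0.68 and -0.23 in control rats 1 to 5. All mulberry rats lay below control rats 1, 2, 3 and 5, and control rat 4 lay among them. The mean was -0.66 ± 0.18 in mulberry and -0.32 ± 0.25 in control rats (SD, n = 5 each), a difference of -0.34. The two-sided exact permutation test over 252 assignments gave p = 0.0476, or 0.0952 after Benjamini-Hochberg adjustment over the 2 ratios computed, which misses the threshold. The smallest p that test can give is 0.00794. With the other Cebpa probe sets the ratio differed by -0.35 to -0.30, with adjusted exact p values from 0.0952 to 0.262. Without control rat 4 the difference was -0.43 (adjusted exact permutation p = 0.0317), so that rat decides the call. It is the only control rat among the mulberry rats, so leaving it out separates the groups and fixes that p at the smallest possible. With any other rat left out the adjusted exact permutation p was 0.0952 to 0.190.

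**Figure D3:**
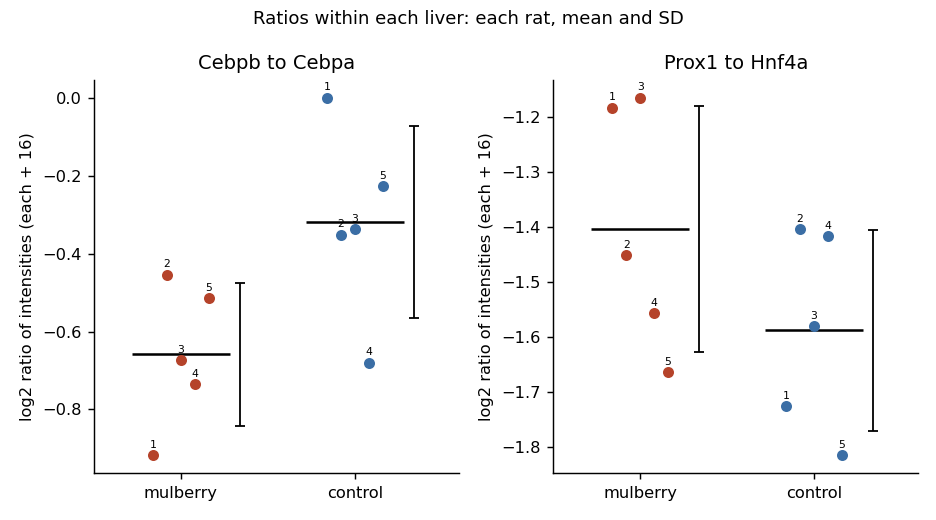
Log2 ratio of Cebpb to Cebpa (left) and of Prox1 to Hnf4a (right) in each liver, from the brightest probe sets, with rat numbers, group means (lines) and SD of 5 rats (bars beside them). Mulberry rats are on the left of each panel and control rats on the right. The mulberry mean of the Cebpb to Cebpa ratio is -0.66 and the control mean -0.32.

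Genes that the C/EBP factors regulate gave 0 calls. Of 12 C/EBP-alpha-regulated genes 10 had a higher and 2 a lower mean (median +0.038, 0 called). Of 16 C/EBP-beta-regulated and acute-phase genes 12 had a higher and 4 a lower mean (median +0.042, 0 called), the smallest p belonging to the ferroxidase gene Cp (+0.12 ± 0.091) and next to the iron-binding lipocalin Lcn2 (+0.28 ± 0.29). Across rats 3 of those 16 correlated positively with Cebpb (median r = -0.30), where 49.5% of all genes did. Cebpb is also expressed in myeloid cells. The 6 macrophage and Kupffer cell markers on the array, none at or under an intensity of 10, summed to 7725 to 12511 in mulberry and 9691 to 14283 in control rats, with Cd14 at -0.38 ± 0.14 and Cd68 at +0.39 ± 0.18. Most of that linear sum comes from Clec4f and Cd14, with mulberry means of 4455 and 3838, so it describes mainly these genes. The 4 neutrophil markers summed to 183 to 318 in mulberry and 294 to 425 in control rats, with S100a9 at -0.77 ± 0.19 and S100a8 at -0.62 ± 0.27. Of these 4, Csf3r and Mmp8 did not pass the floor. The S100a8 mean of 54.4 in mulberry rats was under the floor of 61.1, which the gene passed through its control mean of 86.3. Neither its difference nor that of the neutrophil sum, which includes it, is therefore read as a result. Cebpb correlated with these sums at r = 0.14 and r = -0.080, and their part in the Cebpb difference was not tested.

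Of the 8 genes Onecut1 was the one in which rats differed most. Its brightest probe set read 1199, 787, 5230.2, 7063 and 7176 in mulberry rats 1 to 5, against 2802, 2346, 3997, 1644 and 4516 in control rats 1 to 5. Mulberry rats 1 and 2 were below all control rats and mulberry rats 3, 4 and 5 above all of them, so the mulberry rats enclosed the control range. The highest mulberry rat had 9.12 times the intensity of the lowest, while the control rats spanned 2.75 times. The second probe set, 1387760_a_at, read 350.3, 198, 1463, 1736 and 1686 in mulberry rats 1 to 5, against 754, 655, 935, 436 and 1273 in control rats 1 to 5. It ordered the mulberry rats alike apart from rats 4 and 5, which exchanged places, and correlated with the brighter one at r = 0.995 over the 10 arrays, group means subtracted. Means were 4291 ± 3111 in mulberry and 3061 ± 1181 in control rats (SD, n = 5 each), further apart in intensity than those of Cebpb, and the mean log2 difference was +0.075 ± 0.58 (SE), with an interval of -1.17 to 1.32, or a fold of 0.445 to 2.5, the widest of the 8.

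Over both groups the SD between rats within a group was 1.14 on the log2 scale for Onecut1, at percentile 99.7 of the 10328 genes and at percentile 99.6 of the 919 within 0.5 log2 of its level, whose median was 0.19. The other 7 factors lay between percentile 17.8 for Hnf4a and 92.7 for Foxa2. The SD between mulberry rats alone was 1.51, at percentile 99.9, and that between control rats 0.59, at percentile 94.9. The ratio of both SDs, 2.57, stood at percentile 94.6. These spreads are given as a description, since they were seen before they were singled out. The Gapdh ratio correlated with Onecut1 at r = 0.0040, and at r = 0.54 without the 2 arrays farthest from the median ratio (0.051 and 0.54 for 1387760_a_at). The part of RNA length in the Onecut1 spread was not tested. Onecut1 is also a gene of bile duct cells, whose 6 markers on the array summed to 1333, 1158, 1388, 994 and 1386 in mulberry rats 1 to 5, against 1389, 1354, 1202, 1128 and 1257 in control rats 1 to 5 (r = 0.032 with Onecut1). The lowest of those markers was Krt7, at a mean of 11.9, and Krt19 was at -0.16 ± 0.26. Of the 6, 3 passed the floor, while Krt7, Spp1 and Cftr did not. Most of that linear sum comes from Slc4a2 and Epcam, with mulberry means of 660 and 403, while Krt19 had 80.2. The correlation with Onecut1 therefore describes mainly the bright markers, and the part of bile duct cells was not tested.

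**Figure D4:**
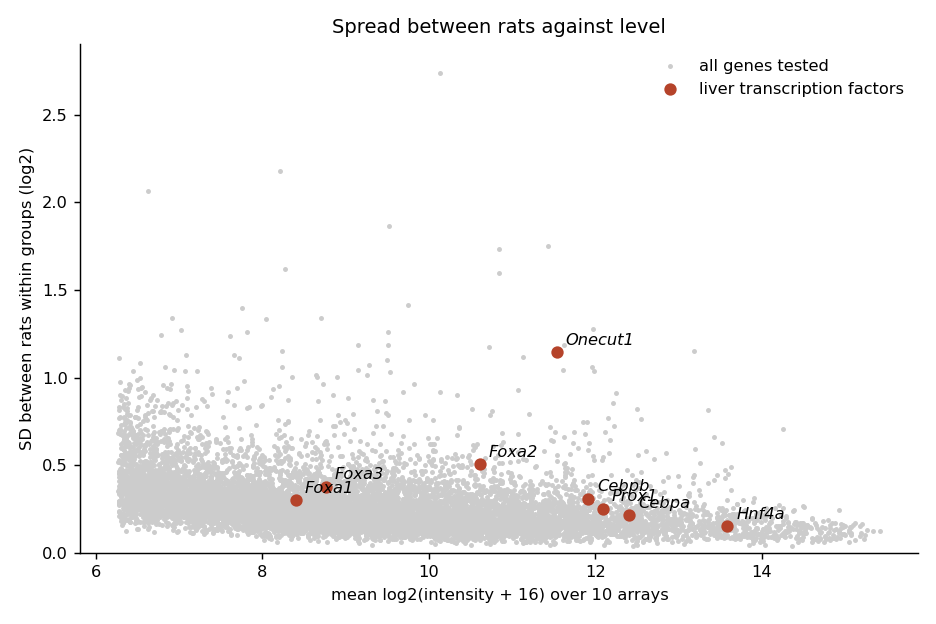
SD between rats within groups against mean level, both of log2(intensity + 16), for 10328 genes (grey) and the 8 factors (red, named). Each gene is read by its brightest tested probe set. Onecut1 lies at 1.14 and Hnf4a at 0.15.

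Foxa2 was the factor that went with Onecut1. Across the 10 rats, group means subtracted, they correlated at Pearson r = 0.76 and Spearman rho = 0.77. Without the 2 rats farthest from the Foxa2 median r was 0.83. That trimming kept mulberry rats 1 and 2, so it does not show how far the correlation rests on them. In mulberry rats 1 and 2, low for Onecut1, Foxa2 was 1126 and 1006, and in mulberry rats 3, 4 and 5 it was 2184, 1613 and 1849.5. Among control rats, rat 4 was lowest for both. Both also ran with the Gapdh ratio once its 2 outer arrays were left out, at r = 0.65 for Foxa2 and 0.54 for Onecut1, and its part in their correlation was not tested. Hnf4a correlated with Onecut1 at r = -0.37, -0.29 and -0.21 on its 3 probe sets.

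Genes that ONECUT1 regulates gave no common direction across rats. Of 9 measured, 6 had a higher and 3 a lower mulberry mean (median +0.037, 0 called), and 5 correlated positively with Onecut1 across rats (median r = 0.062, beside 0.0048 over all genes). The highest was Pfkfb1, which sets fructose 2,6-bisphosphate, at r = 0.48, and the lowest Cyp2c12 at r = -0.44. Cyp2c12, a steroid hydroxylase that predominates in female rat liver, read 1036, 2637, 1934, 1751 and 861 in mulberry rats 1 to 5, against 893, 1023, 387, 1238 and 602 in control rats 1 to 5. Mulberry rat 2, lowest for Onecut1, was highest for Cyp2c12, and mulberry rat 5, highest for Onecut1, was the lowest mulberry rat. The Cyp2c12 difference of +0.97 ± 0.34 did not pass the test (limma, n = 5 each, adjusted p = 0.9999).

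**Figure D5:**
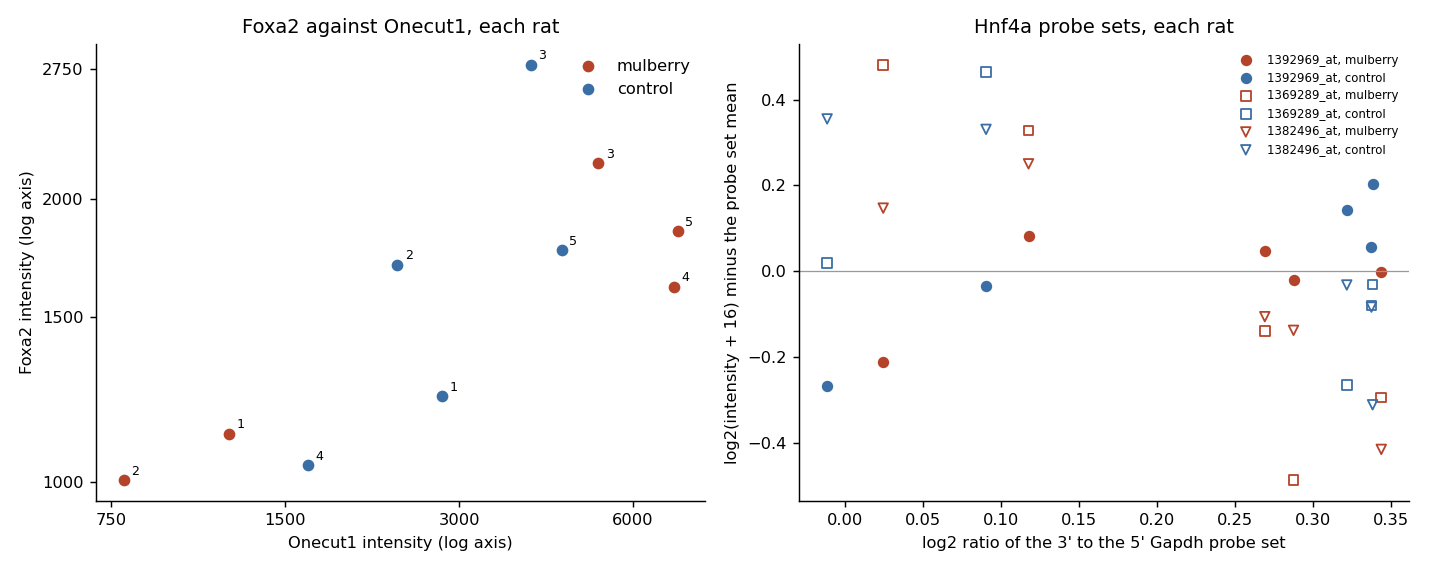
Left, Foxa2 against Onecut1 intensity in each rat, both axes logarithmic, with rat numbers. Right, the 3 Hnf4a probe sets (filled circles for 1392969_at, open squares and triangles for the others) as log2(intensity + 16) minus each probe set's mean, against the 3′ over 5′ Gapdh ratio (log2). Mulberry rats are red and control rats blue. Foxa2 and Onecut1 correlate at r = 0.76, and the dimmer Hnf4a probe sets slope against the brightest.

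Prox1 encodes a homeodomain protein of hepatocytes and lymphatic endothelium that represses bile acid synthesis with HNF4A. It read 5711, 4622, 5455, 3592 and 3803 in mulberry rats 1 to 5, against 4258, 4815, 3399, 4479.7 and 3838 in control rats 1 to 5. Mulberry rats 1 and 3 were above all control rats and mulberry rats 4 and 5 among the lower ones. Means were 4636 ± 949.9 in mulberry and 4158 ± 553 in control rats (SD, n = 5 each), a log2 difference of +0.14 ± 0.14 (SE) with an interval of -0.17 to 0.45, or a fold of 0.89 to 1.37. The second Prox1 probe set, 1381417_at, did not pass the floor on dim signals, with 42.5 ± 23.5 in mulberry and 63.0 ± 10.4 in control rats (SD, n = 5 each). Fitted without that floor it differed by -0.53 ± 0.30, the opposite sign, and mulberry rat 4 was at 10.7.

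The log2 ratio of Prox1 to Hnf4a was -1.40 ± 0.22 in mulberry and -1.59 ± 0.18 in control rats (SD, n = 5 each, difference +0.18, exact permutation p = 0.206, and the same after adjustment). With Hnf4a probe sets 1369289_at and 1382496_at the ratio differed by +0.19 and +0.25 (exact permutation p = 0.516 and 0.381). Cyp7a1, which commits cholesterol to bile acids and is a target of both, was at -0.24 ± 0.26, and Cyp8b1, the sterol hydroxylase of cholic acid synthesis, at +0.24 ± 0.24. The 8 endothelial markers, 5 of them with a higher mean, summed to 8284 to 10423 in mulberry and 7728 to 9810.5 in control rats. Most of that linear sum comes from Lyve1 and Kdr, with mulberry means of 3840 and 3209, while Flt4, Pdpn and Foxc2 had 140, 72.8 and 129. Prox1 ran against the sum across rats (r = -0.79), and Onecut1 with it (r = 0.68), which describes mainly the bright markers. The part of endothelial cells in either was not tested.

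As a set the 8 factors showed no common direction from rat to rat. Of 28 pairs 14 correlated positively and 14 negatively over the 10 arrays, with a median r of 0.0020, beside 0.0066 between the factors and all other genes. The highest after Foxa2 and Onecut1 were Cebpa with Cebpb (Pearson r = 0.71 and Spearman rho = 0.56) and Hnf4a with Prox1 (Pearson r = 0.59 and Spearman rho = 0.47). These rested on the outer rats, at r = 0.017 and r = -0.0024 without the 2 rats farthest from the median of the first-named gene. The Hnf4a value with Prox1 holds for the brightest Hnf4a probe set, while 1369289_at gave r = 0.067 and 1382496_at r = -0.24. The lowest were Hnf4a with Foxa3 (r = -0.84, which holds for the brightest Hnf4a probe set), Foxa1 with Cebpa (r = -0.73) and Foxa1 with Cebpb (r = -0.70), which stayed at r = -0.83, -0.61 and -0.51 without such rats.

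For each factor the genes most like it across rats were found by Pearson r over the 10 arrays with group means subtracted, among 10328 genes. The best of so many genes over so few arrays is high by selection. Onecut1 was most like Atxn1l (r = 0.94, rho = 0.92) and Ist1 (r = 0.93, rho = 0.95), and Foxa2 like Trib3 (r = 0.96, rho = 0.82) and Casc3 (r = 0.92, rho = 0.83). Trib3, a stress-induced pseudokinase, read 341, 299, 841, 708 and 616 in mulberry rats 1 to 5, against 447, 1052, 1721, 467 and 805 in control rats 1 to 5, highest in control rat 3 as Foxa2 was. Foxa1 was most like Gramd4 (r = 0.94, rho = 0.96) and Alg9 (r = 0.94, rho = 0.94), and Foxa3 like Mcf2l (r = 0.96, rho = 0.94) and Des (r = 0.91, rho = 0.93). Cebpa went with Zfp827 (r = 0.95, rho = 0.96) and Chek2 (r = 0.93, rho = 0.78), and Cebpb with Mfsd14a (r = 0.97, rho = 0.96) and Dr1 (r = 0.92, rho = 0.96). Hnf4a, read by its brightest probe set, was most like G3bp2 (r = 0.95, rho = 0.78) and Nek7 (r = 0.94, rho = 0.81), and Prox1 like Xiap (r = 0.97, rho = 0.94) and Trim2 (r = 0.96, rho = 0.87).

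The wider circle of liver transcription factors held 0 called genes. Of 27 further liver-enriched factors and partners tested, 12 had a higher and 15 a lower mulberry mean (median -0.0082), and 0 passed the test. The smallest unadjusted p belonged to Gata6 (+0.31 ± 0.16), a zinc finger factor of early liver, at 224 ± 46.0 in mulberry and 176 ± 25.4 in control rats (SD, n = 5 each), and to Nr0b2 (-0.36 ± 0.20), the bile acid induced repressor SHP, at 5796 ± 1235 in mulberry and 7574 ± 2214 in control rats (SD, n = 5 each). Onecut2, the relative of Onecut1, differed by +0.19 ± 0.17, Cebpd by -0.12 ± 0.17 and the nuclear receptor Nr5a2, a partner of PROX1, by +0.11 ± 0.12. The widest differences were those of the clock output factor Dbp (+0.90 ± 0.80) and of Ppara (-0.59 ± 0.36), neither called.

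The output of the network gave no call either. All 11 hepatocyte markers measured had a slightly higher mulberry mean, between 0.0060 and +0.11, with a median of +0.037 and 0 called, among them Ahsg (+0.068 ± 0.080) and Fgb (+0.063 ± 0.072), genes of a plasma glycoprotein and of fibrinogen. Their summed intensity ran from 292045 to 360984 in mulberry and from 293066 to 354214 in control rats, so the groups overlapped. The sum was highest in mulberry rats 1 and 4 and control rat 3. Mulberry rat 4 and control rat 3 also had the lowest Gapdh 3′ to 5′ ratios (0.024 and -0.012), whose part was not tested. These markers share genes with the lists of regulated genes, Ttr and Serpina1 among them, so the directions of the lists are not separate observations. Of the fetal liver markers 2 of 5 passed the floor, Afp and the imprinted RNA H19 (+0.34 ± 0.17), both with a higher mean. Of 7 stellate cell markers 5 had a higher mean, with Reln at +0.20 ± 0.12 and Col1a1 at -0.32 ± 0.24, and of the endothelial markers Pdpn was at +0.26 ± 0.20 and Pecam1 at +0.073 ± 0.11. The Pdpn mean of 58.9 in control rats was under the floor of 61.1. Slc4a2, a bile duct anion exchanger, was at -0.075 ± 0.13. Over the 13 lists besides the 8 factors, 104 genes were tested, 0 passed, and 6 had an unadjusted p under 0.05, against 1.79% of all genes. Those were Afp, Cyp2c12, Cd68, Cd14, S100a8 and S100a9, of which S100a8 had a mulberry mean under the floor. The lists were chosen with earlier results of these data known, so that count is not read as an enrichment.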

How the data were processed

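Liver RNA of each of the 10 rats was hybridised to its own Affymetrix array. Groups and rat numbers follow the sample titles. The authors deposited linear signal intensities, 1 per probe set and array. Per the submitters' processing notes, MAS5 and affy were used, with no version or role named. The mean of the deposited intensities after trimming 2% at each end was 500 on every array, so the arrays were taken as scaled, and a joint shift of most genes would not be seen. Detection calls were not used here.

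From the deposited values log2(intensity + 16) was computed, without the 57 control probe sets and those at or under the 40th percentile of mean log2 value (an intensity of 61.1), which kept 18625 of 31042. Groups were compared with limma 3.58.1 in R 4.3.3 (lmFit, eBayes with a variance trend, two-sided, Benjamini-Hochberg over every probe set kept), checked on simulated data. Each gene is represented by the brightest probe set kept. Ratios were tested by exact permutation of the rats. The tables and plots used Python 3.11.15, scipy 1.17.1, numpy 2.4.6, pandas 2.3.3 and matplotlib 3.10.9. Precision is limited by the number of arrays, and levels of different probe sets are not compared as RNA amounts. The limma p-values set a difference of group means against the spread between these rats, with variances moderated across probe sets. The exact ones set it against all assignments of the rats. No spread was itself tested.

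The platform annotation gave 20826 probe sets 1 symbol, 436 several and 9780 none used here, and 20758 of the first kind matched RefSeq genes of GRCr8 by Entrez identifier, all 8 factors among them. The 8 factors and the lists were chosen with earlier results of these data known. The text covers every probe set of the 8 genes, some within a range, and names Alb, Ttr and Apoa1, the 2 genes of smallest unadjusted p in each list and the 2 most correlated genes of each factor. Cyp7a1, Cyp8b1, Onecut2, Cebpd, Nr5a2, Dbp, Ppara, Pfkfb1 and Krt7 were named after their values were seen. Alternatives were each array left out in turn, quantile normalization, arrays shifted to one median, a 60th percentile filter or none, a pseudocount of 1 or of 64, limma without the trend, the replicate number as a block, and other probe sets.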

Additional observations from a re-analysis of the deposited data

Results flagged for a closer look

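Outlying rats were sought in 80 groups of 5 rats. These covered each probe set of the 8 factors, both ratios and the 2 genes of smallest unadjusted p in each list, but not Ttr or Apoa1. Of the 80, 5 held 1 rat whose gap to its nearest neighbour exceeded 0.71 of the group's range on the log2 scale. Chance gives about 1 in 20 groups. Cebpa probe set 1383243_at was 3050.2 in mulberry rat 1 and 3839 to 4142 in the other mulberry rats. Alb was 40742 in control rat 3 and 26590.5 to 28699 in the other control rats, and Ahsg 36964 in control rat 3 and 31503 to 32936 in the others. Ttr, which was not scanned, was likewise 31765 in control rat 3 and 25783 to 26955.5 in the other control rats. That rat also had the lowest Gapdh 3′ to 5′ ratio (-0.012). Col1a1 was 36.6 in mulberry rat 2, under the filter level, and 95.04 to 111 in the other mulberry rats. Cp was 22477 in mulberry rat 5 and 25099 to 25958 in the other mulberry rats.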

How the results depend on the processing

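The count of probe sets called was 0 in limma under all 18 alternatives, and so was that of the 8 factors; unadjusted p values under 0.05 numbered 325, 878 without a filter and 171 with the stricter one. With the replicate block 0 probe sets and 0 factors were called, and the Cebpb to Cebpa and Prox1 to Hnf4a ratios differed by -0.34 and 0.18 (adjusted exact permutation p = 0.125 and 0.312), so it changed no call. The labels do not say whether the numbers pair the rats. Deviations of same-numbered rats correlated at -0.33 to 0.10, and 1 of 5 mulberry rats correlated best with its own number. So few pairs cannot decide that question. Cebpb and Prox1, on their brightest probe sets, kept their direction under every alternative run. The direction of differences near 0 turned when rats were left out in turn, for Hnf4a (-0.11 to +0.0057), Foxa1 (-0.064 to +0.14), Foxa2 (-0.26 to +0.088), Foxa3 (-0.17 to +0.073), Cebpa (-0.063 to +0.10) and Onecut1 (-0.24 to +0.56, highest without mulberry rat 2). It also turned for Foxa1 with a median shift (-0.0024) and for Cebpa on probe sets 1383243_at (-0.0039) and 1369658_at (-0.020). Leaving out rats in turn, the Cebpb to Cebpa ratio differed by -0.43 to -0.26, past the threshold without control rat 4 alone, and the Prox1 to Hnf4a ratio by 0.12 to 0.25. Ratios on other probe sets were added after seeing the data.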
